A study of Mus musculus with 8 samples.

Results

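The genes described here are the ligands and receptors of the tumour necrosis factor (TNF) superfamily in whole liver of mice with liver-specific expression of an activated oncogene and mutant p53 (R172H). AKP::Keap1 mice carry both mutant genes and a deletion of Keap1, and AKP mice carry both with Keap1 in place. Keap1 is the adaptor that marks the transcription factor Nrf2 for degradation, and the series asks how its loss acts on bile duct cancer in this model. RNA from 2 AKP::Keap1 males, 2 AKP males, 2 AKP::Keap1 females and 2 AKP females was hybridised to 8 single-colour Agilent arrays, 1 per mouse. The promoter that drives the liver-specific expression and the ages of the mice are not given in the sources used here.

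Members were chosen by name: Tnf, Lta, Ltb, Ltbr, Fas, Fasl and each mouse symbol that starts with Tnfsf or Tnfrsf. Of 39 such symbols in the gene table, 37 have a probe on the array, with 47 probes of 39429 in all. Tnfsf13 and Tnfsf13os are the symbols without one. A probe was kept where its signal stood well above background on 2 or more of the 8 arrays, which left 42 probes for 32 members, among 15834 genes kept of 19751. Tnfrsf8, Tnfsf11, Tnfsf18, Tnfsf4 and Tnfsf8 were well above background on 0 arrays and were not tested. Of the 32 members, 29 were above background on all 8 arrays. Lta was above it on 2 arrays, Tnfrsf17 on 5 and Tnfsf9 on 7.

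TNF superfamily ligands are mostly trimeric membrane proteins that can be shed, and they act by clustering receptors on the target cell. Receptors with a death domain can recruit FADD and caspase-8 and start apoptosis, whereas receptors that bind TRAF adaptors activate NF-kB and JNK, and decoy receptors bind a ligand without passing on a full signal. In the liver, TNF and Fas are known for hepatocyte death, TNF receptor 1 also for regeneration, and lymphotoxin and TWEAK signalling for the expansion of bile duct cells and progenitors.

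Keap1, as a check of the labels, had -1.35 and -1.40 in AKP::Keap1 males against 1.83 and 2.14 in AKP males, and -0.52 and -0.72 in AKP::Keap1 females against 1.68 and 1.77 in AKP females. These and all levels below are log2 signals relative to the array's 75th percentile of signal, so that 1 unit is a doubling of signal, and the level of one probe cannot be set against that of another. The difference was -2.85 ± 0.11 (SE, limma adjusted p = 0.000177), and the sources used here do not place its probe inside or outside the deletion. On single arrays 65.7% to 70.7% of spots exceeded background, and 0 spots were saturated. The AKP males had the lowest shares (66.3% and 65.7%) and the AKP::Keap1 males the highest (70.7% each). Median signals before scaling were 55.9 and 65.5 in AKP males against 113 and 108 in AKP::Keap1 males. In females they were 72.7 and 68.5 in AKP against 76.2 and 91.1 in AKP::Keap1. The liver markers were bright on all arrays, with Alb between 8.07 and 9.07. Each slide held 1 group, and the sexes were scanned on different days, so slide and group cannot be told apart. The labels number 2 mice per group without further detail, and p-values measure only the spread between these samples.

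Averaged over the sexes, 12 members were higher and 2 lower in AKP::Keap1 livers than in AKP livers at a limma adjusted p below 0.05, and 18 were not called. Over all genes tested, 21.8% were called higher, 17.2% lower and 39.1% in either direction. The ligands lymphotoxin beta, TNF, 4-1BB ligand and BAFF rose, as did receptors for TRAIL, RANKL, OX40 ligand and GITR ligand. Lymphotoxin alpha is also among the 12, but it was above background on 2 AKP::Keap1 arrays and 0 AKP arrays, so its size is not measured. Osteoprotegerin and the Tnfsf12-Tnfsf13 read-through transcript fell. The median log2 difference over the 32 members was 0.36, against -0.0009 over all genes tested, and it was -0.02 when background was corrected from the spots' median signals with normexp, a setting under which all genes had a median of -0.12. Dim genes as a whole were higher in AKP::Keap1. When all genes were ranked by mean level and split into 10 equal parts, 15 of the 32 members lay in the 3 dimmest parts, with 2, 3 and 10 members in parts whose median differences were 0.50, 0.31 and 0.27. The brightest part, which held 3 members, had a median of -0.16. In bulk liver, fewer cells of a type and less RNA per cell cannot be told apart.

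**Figure D1:**
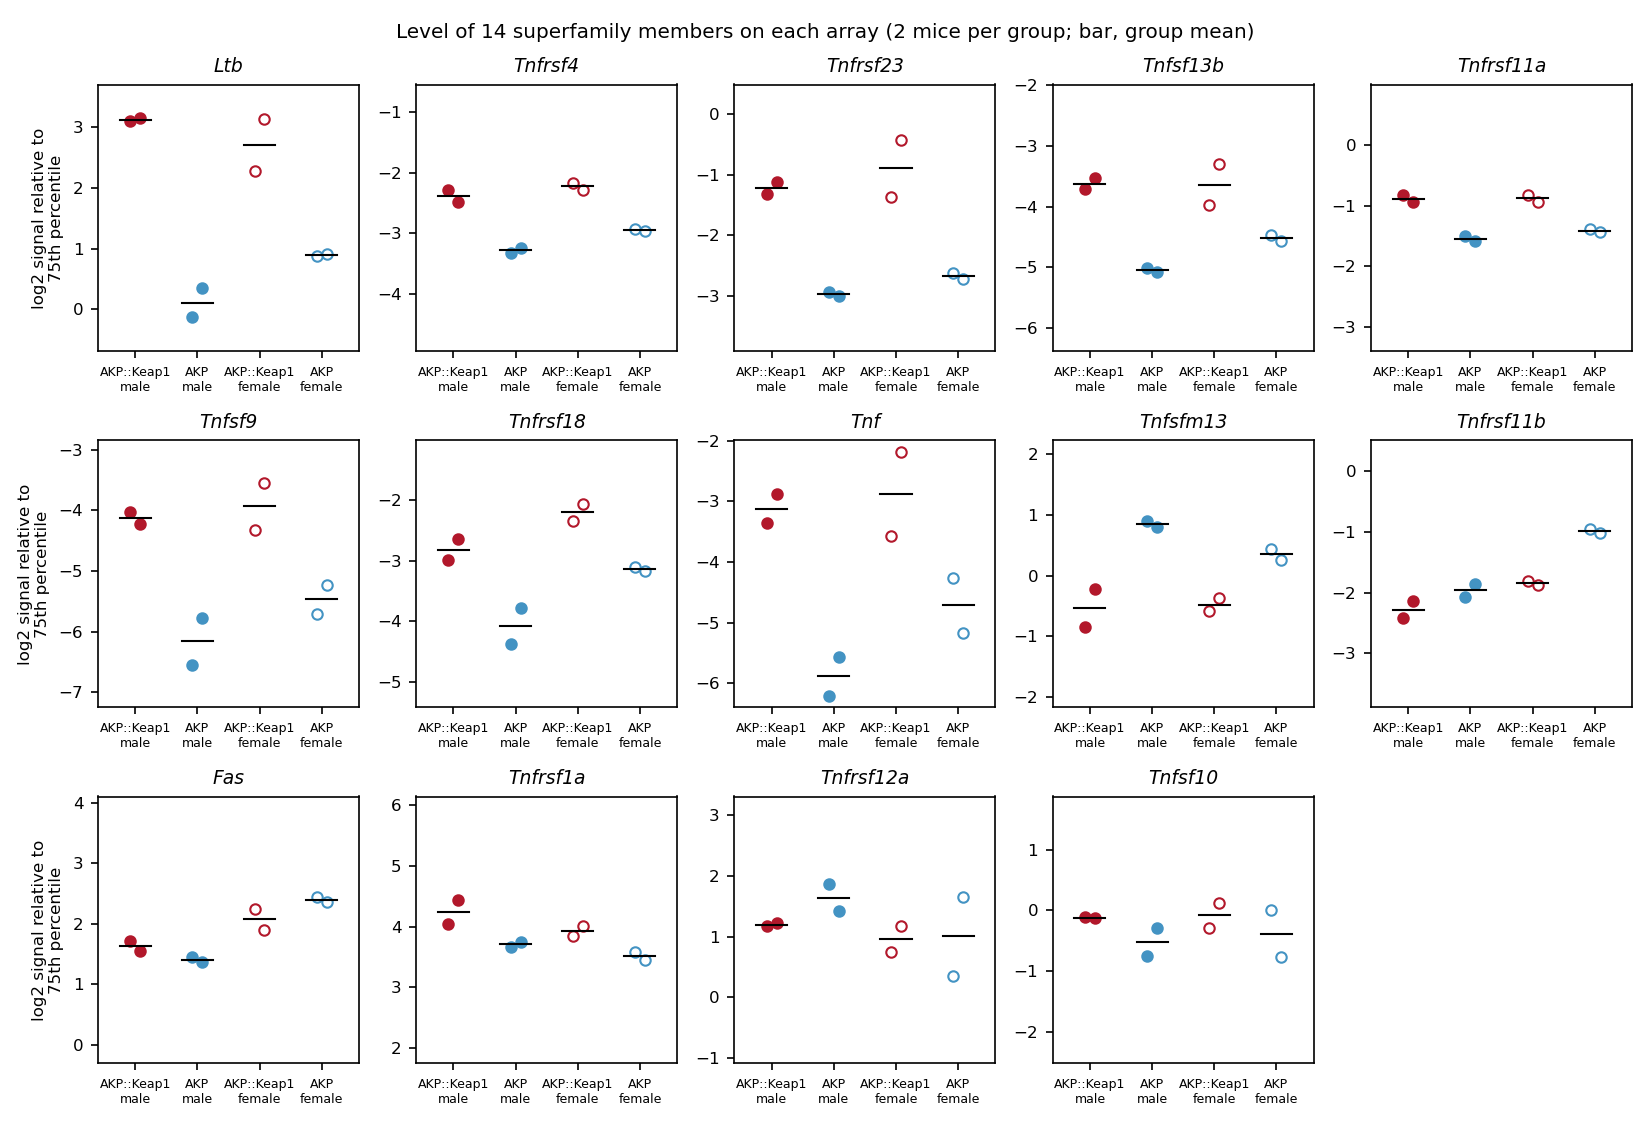
Levels of 14 members on each array, as log2 signal relative to the 75th percentile of the array; each point is 1 mouse, bars are group means, and each panel spans the same number of log2 units. In the upper rows the AKP::Keap1 mice lie above the AKP mice of the same sex for Ltb to Tnf and below them for Tnfsfm13 and Tnfrsf11b, while Tnfrsf12a and Tnfsf10 overlap in females.

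Among the ligands, 5 of 10 tested were called higher, Lta included, and 0 lower, with a median difference of 0.84. The shares over all genes tested were 21.8% higher and 17.2% lower. Lymphotoxin beta, encoded by Ltb, is the membrane anchor of the lymphotoxin heterotrimer that binds the lymphotoxin beta receptor. It stood at 3.10 and 3.15 in AKP::Keap1 males against -0.14 and 0.35 in AKP males, and at 2.27 and 3.13 in AKP::Keap1 females against 0.87 and 0.91 in AKP females. All 4 AKP::Keap1 mice were above all 4 AKP mice, and the AKP::Keap1 females differed from each other more than the males did. The difference of 2.41 ± 0.21 (SE, adjusted p = 0.00122), a 5.33-fold rise, was the largest among the 32 members. Its receptor Ltbr differed by 0.01, with a 95% interval from -0.35 to 0.36 (adjusted p = 0.975).

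Tnf, the founding cytokine of the family and a product of activated macrophages and T cells, had -3.37 and -2.89 in AKP::Keap1 males against -6.21 and -5.56 in AKP males. In females it had -3.57 and -2.19 in AKP::Keap1 and -4.26 and -5.16 in AKP. The groups did not overlap in either sex, although the lower AKP::Keap1 female lay within 1 unit of the higher AKP female. The rise was 2.30 ± 0.38 (SE, adjusted p = 0.00597), or 4.91-fold. With normexp on median signals it was 0.89 and remained called (adjusted p = 0.0117). Lta, which forms a soluble trimer for the TNF receptors and joins lymphotoxin beta on the membrane, was above background on 1 AKP::Keap1 array of each sex and on 0 AKP arrays. It passed the filter only through AKP::Keap1 mice, and its call (adjusted p = 0.00798) rests on AKP signals not well above background. With AKP arrays set no lower than their lowest signal well above background, the mean of all AKP::Keap1 arrays was 1.18-fold higher. Some of those AKP::Keap1 arrays were themselves not above background. By the same measure the fold was 1.44 in females, where Lta was not called (adjusted p = 0.0772), and no rise was left in males. With normexp on median signals the difference of Lta was -0.22 and not called (adjusted p = 0.165).

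Ltb, Tnf and Lta are neighbours on chromosome 17 within the major histocompatibility region, and all 3 were called higher, Lta with the limits given above. The promoter windows of Ltb and Tnf are shown because these neighbouring genes both rose, that of Lta because it lies beside them, and that of Tnfsf13b because it holds the core of the Nrf2 binding site. Each runs 5′ to 3′ on the gene's strand, from 250 bases before to 50 bases after the RefSeq start in GRCm38.p6, with motif matches in capitals. The windows are chr17:35194257-35194556 on the plus strand for Ltb, chr17:35201958-35202257 on the minus strand for Tnf, chr17:35205302-35205601 on the minus strand for Lta and chr8:10006383-10006682 on the plus strand for Tnfsf13b, which has a further start upstream.
Ltb: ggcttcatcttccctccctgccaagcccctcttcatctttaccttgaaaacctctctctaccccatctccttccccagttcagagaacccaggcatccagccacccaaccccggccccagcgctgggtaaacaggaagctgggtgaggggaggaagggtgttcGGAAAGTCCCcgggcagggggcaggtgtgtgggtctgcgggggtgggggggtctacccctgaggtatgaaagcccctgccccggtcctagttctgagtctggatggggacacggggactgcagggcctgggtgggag
Tnf: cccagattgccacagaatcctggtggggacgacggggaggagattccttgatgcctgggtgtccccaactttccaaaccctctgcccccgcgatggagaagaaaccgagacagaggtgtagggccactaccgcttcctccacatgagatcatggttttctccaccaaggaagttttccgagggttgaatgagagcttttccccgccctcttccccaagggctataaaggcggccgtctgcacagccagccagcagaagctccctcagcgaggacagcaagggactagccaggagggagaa
Lta: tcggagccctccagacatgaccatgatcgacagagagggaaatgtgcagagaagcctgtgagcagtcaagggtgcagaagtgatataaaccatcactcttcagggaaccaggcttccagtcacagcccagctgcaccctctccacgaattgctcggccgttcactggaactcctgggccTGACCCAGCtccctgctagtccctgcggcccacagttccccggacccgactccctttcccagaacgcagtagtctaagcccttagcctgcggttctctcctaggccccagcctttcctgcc
Tnfsf13b: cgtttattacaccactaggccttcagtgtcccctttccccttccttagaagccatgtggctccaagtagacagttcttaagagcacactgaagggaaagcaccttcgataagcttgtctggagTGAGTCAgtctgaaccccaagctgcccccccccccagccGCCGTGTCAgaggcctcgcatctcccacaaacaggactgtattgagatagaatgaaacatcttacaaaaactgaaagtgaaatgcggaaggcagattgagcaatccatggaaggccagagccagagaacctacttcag

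The motifs searched on both strands were the NF-kB consensus, TGACNNNGC, which is the core of the antioxidant response element bound by Nrf2, and the AP-1 site TGACTCA or TGAGTCA. In Ltb the capitals mark an NF-kB consensus at bases 164 to 173 of the window, in Lta a TGACNNNGC match at bases 180 to 188, and in Tnfsf13b an AP-1 site at bases 124 to 130 and a TGACNNNGC match on the opposite strand at bases 163 to 171. The Tnf window holds 0 matches of these letters. A TGACNNNGC match was present in 20.6% of the 34 windows of 30 members, against 12.4% of 32851 windows of all genes, the NF-kB consensus in 11.8% against 8.46%, and the AP-1 site in 17.6% against 5.20%. Of the 10 members called higher by genotype that have a window, 3 hold a TGACNNNGC match, 1 the NF-kB consensus and 1 the AP-1 site. The AP-1 site of Tnfsf13b is counted in both of its overlapping windows. A match describes letters and does not show binding.

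Tnfsf13b encodes BAFF, the survival factor of B cells that myeloid cells secrete. It had -3.71 and -3.53 in AKP::Keap1 males against -5.01 and -5.07 in AKP males, and -3.97 and -3.30 in AKP::Keap1 females against -4.46 and -4.57 in AKP females. No AKP mouse reached an AKP::Keap1 mouse, and the gap was wider in males than in females. The rise of 1.15 ± 0.16 (SE, adjusted p = 0.00363) fell to 0.33 with normexp on median signals and lost its call there (adjusted p = 0.053). Tnfsf9, the ligand of 4-1BB on T cells, had -4.03 and -4.23 in AKP::Keap1 males against -6.54 and -5.78 in AKP males, and -4.32 and -3.55 in AKP::Keap1 females against -5.70 and -5.23 in AKP females. It was above background on each AKP::Keap1 array and on 3 of 4 AKP arrays, without overlap of the genotypes. The rise was 1.78 ± 0.25 (SE, adjusted p = 0.00387), and with normexp on median signals it was 0.39 (adjusted p = 0.0448).

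The remaining ligands were not called by genotype. Tnfsf10, which encodes TRAIL, the ligand of the death receptor Tnfrsf10b, had -0.11 and -0.13 in AKP::Keap1 males against -0.76 and -0.29 in AKP males. In females it had -0.29 and 0.13 in AKP::Keap1 and 0.01 and -0.77 in AKP. The males did not overlap and the females did, and the difference of 0.35 had a 95% interval from -0.17 to 0.87 (adjusted p = 0.231). Fasl, the ligand of Fas on cytotoxic lymphocytes, differed by 0.52 ± 0.25 (adjusted p = 0.147), and Tnfsf14, or LIGHT, a ligand of Ltbr and Tnfrsf14, by 0.53 ± 0.18 (adjusted p = 0.0603) with no overlap of the genotypes. Tnfsf15, or TL1A, the ligand of Tnfrsf25, differed by 0.33 ± 0.18 (adjusted p = 0.177), and Tnfsf12, or TWEAK, by -0.01 with a 95% interval from -0.25 to 0.23.

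The read-through transcript Tnfsfm13 joins Tnfsf12 to its neighbour Tnfsf13, which encodes APRIL. It stood at -0.84 and -0.22 in AKP::Keap1 males against 0.90 and 0.81 in AKP males, and at -0.57 and -0.37 in AKP::Keap1 females against 0.44 and 0.26 in AKP females. All AKP::Keap1 mice were below all AKP mice. It fell by 1.11 ± 0.16 on the log2 scale (SE, adjusted p = 0.00379), or 2.15-fold. Tnfsfm13 shares sequence with Tnfsf12 and Tnfsf13, so its probes may read those transcripts too. A second Tnfsfm13 probe had a difference of -0.45 (adjusted p = 0.0367), and a second Tnfsf12 probe one of -0.70 (adjusted p = 0.0144).

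**Figure D2:**
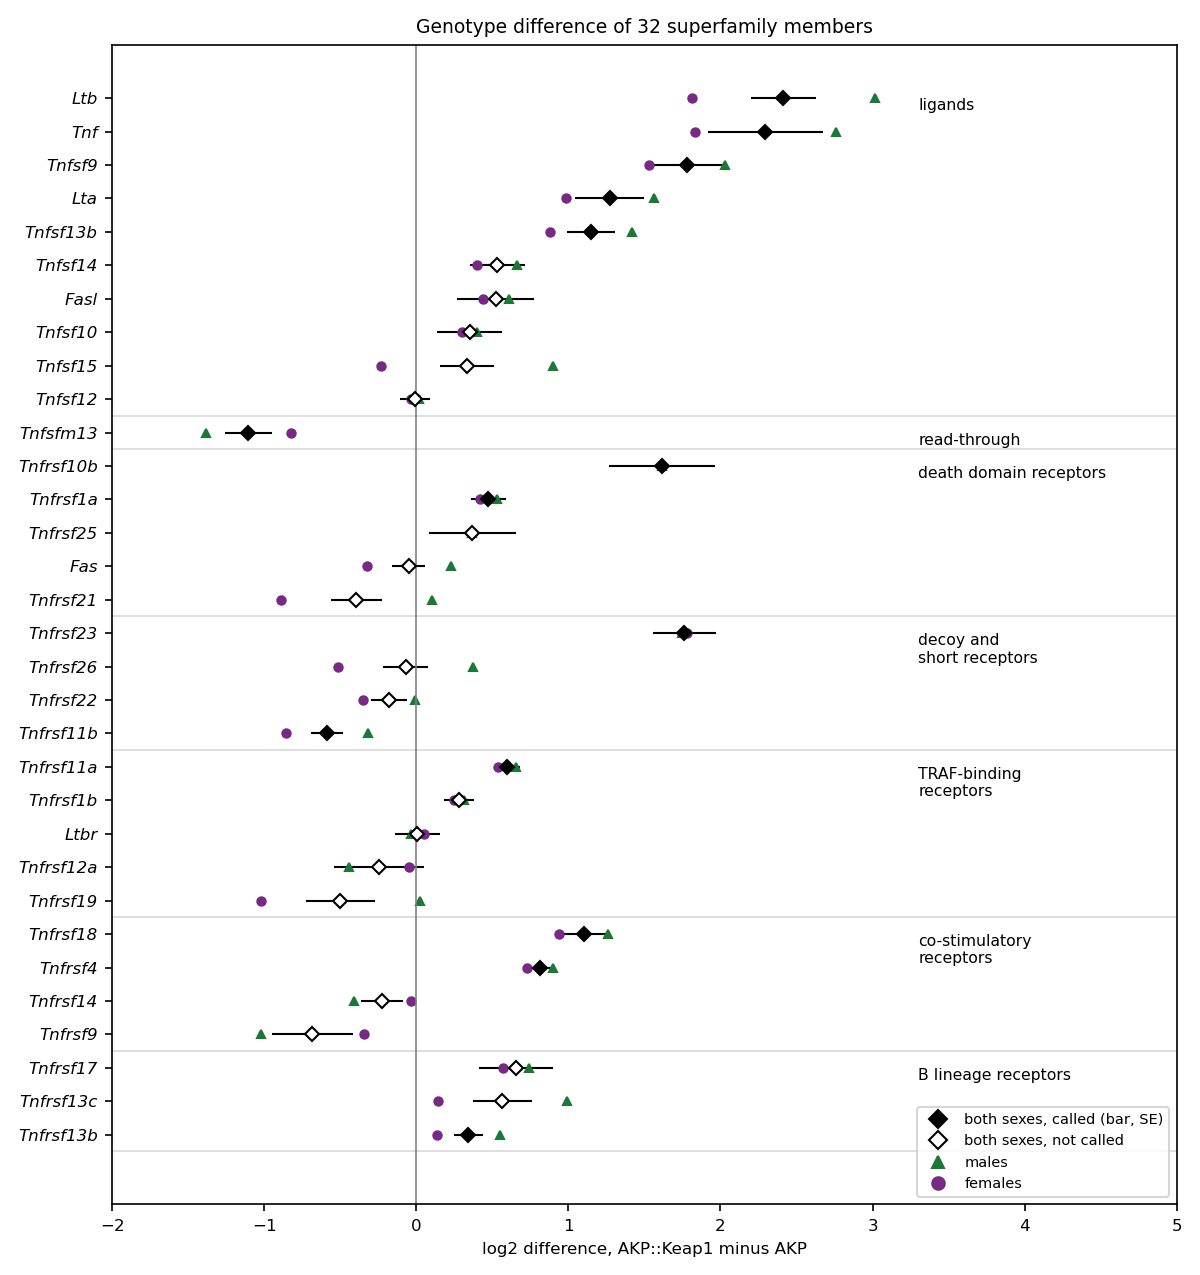
Log2 difference of each of the 32 members tested, AKP::Keap1 minus AKP, grouped by role; diamonds with SE bars are the mean over both sexes, filled where called, triangles are males and circles are females. Ltb (2.41) and Tnf (2.30) have the largest rises and Tnfsfm13 (-1.11) the largest fall among the called members.

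Of the 5 death domain receptors, 2 rose and 0 fell, against 21.8% and 17.2% of all genes tested. Tnfrsf10b is the only death-inducing TRAIL receptor of the mouse. It rose by 1.62 ± 0.35 (SE, adjusted p = 0.0145), with group means of -2.12 ± 0.18 in AKP::Keap1 males against -3.74 ± 0.63 in AKP males and -1.99 ± 0.06 in AKP::Keap1 females against -3.60 ± 1.01 in AKP females (SD, n = 2 each). The AKP mice were the more variable ones, and no AKP mouse reached an AKP::Keap1 mouse. Within a single sex Tnfrsf10b was not called (limma adjusted p = 0.0541 in males and 0.0642 in females). Tnfrsf1a encodes TNF receptor 1, which can signal to NF-kB or to cell death. It had 4.05 and 4.44 in AKP::Keap1 males against 3.67 and 3.75 in AKP males, and 3.85 and 4.02 in AKP::Keap1 females against 3.57 and 3.46 in AKP females. All AKP::Keap1 mice were above all AKP mice by a small margin. The rise of 0.47 ± 0.12 (SE, adjusted p = 0.0215) rests on that probe, since a second Tnfrsf1a probe differed by 0.06 (adjusted p = 0.73), and leaving out any of 5 single arrays ended the call, with adjusted p-values from 0.0512 to 0.0654. The call also ended with the shift to the array median (0.23, adjusted p = 0.141), the mean of kept probes (0.27, adjusted p = 0.111) and slide as a random block (adjusted p = 0.0577).

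Fas, the receptor of Fas ligand that triggers hepatocyte apoptosis, had 1.72 and 1.54 in AKP::Keap1 males against 1.44 and 1.36 in AKP males. In females it had 2.24 and 1.90 in AKP::Keap1 and 2.43 and 2.36 in AKP. The AKP::Keap1 males were above the AKP males, and the AKP::Keap1 females were below the AKP females. Over both sexes Fas differed by -0.05, with a 95% interval from -0.31 to 0.21 (adjusted p = 0.743). Tnfrsf21, or death receptor 6, differed by -0.40 ± 0.17 (adjusted p = 0.11), and Tnfrsf25, or death receptor 3, by 0.37 ± 0.29 (adjusted p = 0.339).

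The decoy and short receptors held 1 rise, 1 fall and 2 members not called, against 21.8% higher and 17.2% lower over all genes tested. Tnfrsf23, a mouse decoy receptor for TRAIL, had -1.32 and -1.13 in AKP::Keap1 males against -2.94 and -3.00 in AKP males, and -1.36 and -0.43 in AKP::Keap1 females against -2.63 and -2.72 in AKP females. The AKP mice lay close together, and the AKP::Keap1 mice were all above them. It rose by 1.76 ± 0.21 (SE, adjusted p = 0.00239), or 3.39-fold. Averaging in its second probe, which was above background on 3 arrays and differed by 0.44 ± 0.77, gave 1.10 with an adjusted p of 0.0903. Tnfrsf26, Tnfrsf22 and Tnfrsf23 are neighbours on chromosome 7 and similar in sequence, and a probe of one may also read another. Tnfrsf22, a further TRAIL decoy, differed by -0.18 ± 0.12 (adjusted p = 0.263) and Tnfrsf26 by -0.07 ± 0.15 (adjusted p = 0.72).

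Tnfrsf11b encodes osteoprotegerin, the secreted decoy for RANKL that also binds TRAIL. It had -2.42 and -2.14 in AKP::Keap1 males against -2.07 and -1.86 in AKP males, and -1.80 and -1.88 in AKP::Keap1 females against -0.96 and -1.01 in AKP females. Within each sex the AKP::Keap1 mice were lower, by a narrow margin in males and a wide one in females. It fell by 0.59 ± 0.10 on the log2 scale (SE, adjusted p = 0.0076), and without scaling between arrays the difference was -0.28 and not called (adjusted p = 0.161). Tnfrsf11a, or RANK, the signalling receptor for RANKL, moved the other way. It had -0.83 and -0.95 in AKP::Keap1 males against -1.50 and -1.58 in AKP males, and -0.82 and -0.93 in AKP::Keap1 females against -1.39 and -1.44 in AKP females. The spread within each group was small against the gap, and the rise was 0.60 ± 0.08 (SE, adjusted p = 0.00364). Their shared ligand RANKL, encoded by Tnfsf11, was above background on 0 arrays.

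Tnfrsf11a was the 1 of 5 TRAF-binding receptors grouped here that was called, against 39.1% of all genes in either direction. The others were Ltbr, Tnfrsf12a, Tnfrsf19 and Tnfrsf1b. Tnfrsf12a, or Fn14, the receptor of TWEAK on progenitor and bile duct cells, had 1.17 and 1.22 in AKP::Keap1 males against 1.86 and 1.41 in AKP males. In females it had 0.74 and 1.17 in AKP::Keap1 and 0.36 and 1.65 in AKP. The AKP females spanned the values of the AKP::Keap1 females, and the difference of -0.25 had a 95% interval from -0.97 to 0.48 (adjusted p = 0.537). Tnfrsf1b, TNF receptor 2, differed by 0.28 ± 0.10 (adjusted p = 0.0637) and was higher in AKP::Keap1 in both sexes without overlap. Tnfrsf19, or TROY, differed by -0.50 ± 0.23 (adjusted p = 0.124).

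Both neighbours Tnfrsf4 and Tnfrsf18 on chromosome 4 rose, and 0 of the 4 co-stimulatory receptors tested fell. Of all genes tested, 21.8% rose and 17.2% fell. Tnfrsf4, or OX40, is found on activated T cells. It had -2.28 and -2.48 in AKP::Keap1 males against -3.33 and -3.24 in AKP males, and -2.17 and -2.28 in AKP::Keap1 females against -2.94 and -2.97 in AKP females. The genotypes were well apart in both sexes, with a rise of 0.81 ± 0.09 (SE, adjusted p = 0.00199). Tnfrsf18, or GITR, a receptor that regulatory T cells carry at a high level, had -2.99 and -2.64 in AKP::Keap1 males against -4.37 and -3.78 in AKP males, and -2.34 and -2.06 in AKP::Keap1 females against -3.11 and -3.17 in AKP females. AKP::Keap1 mice were again all above AKP mice, and the rise was 1.10 ± 0.17 (SE, adjusted p = 0.00467). The ligands of these receptors, Tnfsf4 and Tnfsf18, were above background on 0 arrays.

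Tnfrsf9, or 4-1BB, and Tnfrsf14, or HVEM, were not called, with differences of -0.69 ± 0.27 (adjusted p = 0.0859) and -0.22 ± 0.14 (adjusted p = 0.234). The Tnfrsf9 probe used here was among the brightest, at 4.38 to 6.33, and the other Tnfrsf9 probe, described below, went the other way. Which transcripts either reads was not tested. Among the receptors of B lineage cells, Tnfrsf13b, or TACI, was called at 0.34 ± 0.10 (SE, adjusted p = 0.0351). That call ended when any of 7 single arrays was left out, with adjusted p-values from 0.0697 to 0.0995, and under 6 of 10 other settings. Tnfrsf13c, the BAFF receptor, differed by 0.57 ± 0.19 (adjusted p = 0.062) and Tnfrsf17, or BCMA, by 0.66 ± 0.24 (adjusted p = 0.0745).

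Across arrays without a test, 13 members were higher in all 4 AKP::Keap1 mice than in all 4 AKP mice and 1 was lower, against 15.5% and 11.5% of all genes tested. Within each sex separately, 14 members were higher without overlap and 2 lower, against 21.5% and 17.4% of all genes. Those 14 were the 12 called members with Tnfsf14 and Tnfrsf1b. Lta counts in the 13 and in the 14, on AKP signals not well above background. Of the 14 called members, 8 kept the call under each alternative and without each single array: Ltb, Tnf, Tnfrsf10b, Tnfrsf11a, Tnfrsf18, Tnfrsf4, Tnfsf9 and Tnfsfm13. The sizes of Tnf and Tnfsf9 fell with normexp, as given above. The fit with slide as a random block held genotype and sex without their interaction. Since each slide held 1 group, it cannot separate slide from group.

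For 10 members more than 1 probe was kept, and each probe was also fitted by itself among all kept probes, an alternative added after the data were seen. In 8 of the 10 the probes differed in call, and in 3 (Tnfrsf13c, Tnfrsf22 and Tnfrsf9) they differed in sign. A wide gap was in Tnfrsf14, described here after its values were seen, whose other probe had -6.45 and -6.69 in AKP::Keap1 males against -3.41 and -3.44 in AKP males, and -5.84 and -5.45 in AKP::Keap1 females against -4.23 and -4.28 in AKP females. The AKP::Keap1 mice were all lower on that probe, by 2.27 ± 0.12 on the log2 scale (adjusted p = 0.00036), whereas the probe that stands for the gene overlapped in females. The other Tnfrsf9 probe was above background on 3 AKP::Keap1 arrays and 0 AKP arrays and was called higher in AKP::Keap1 (adjusted p = 0.00629). Its AKP::Keap1 mean was 1.27-fold above the AKP mean set no lower than the lowest signal well above background. On the probe that stands for the gene the value was lower in AKP::Keap1. The other Tnfrsf22 probe, above background on 4 AKP::Keap1 arrays and 1 AKP array, rose by 1.37 ± 0.16 (adjusted p = 0.00224), a size that rests mostly on AKP signals not well above background. The other Tnfrsf19 probe fell by 0.48 ± 0.13 (adjusted p = 0.0288). Which transcripts each probe reads was not tested.

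**Figure D3:**
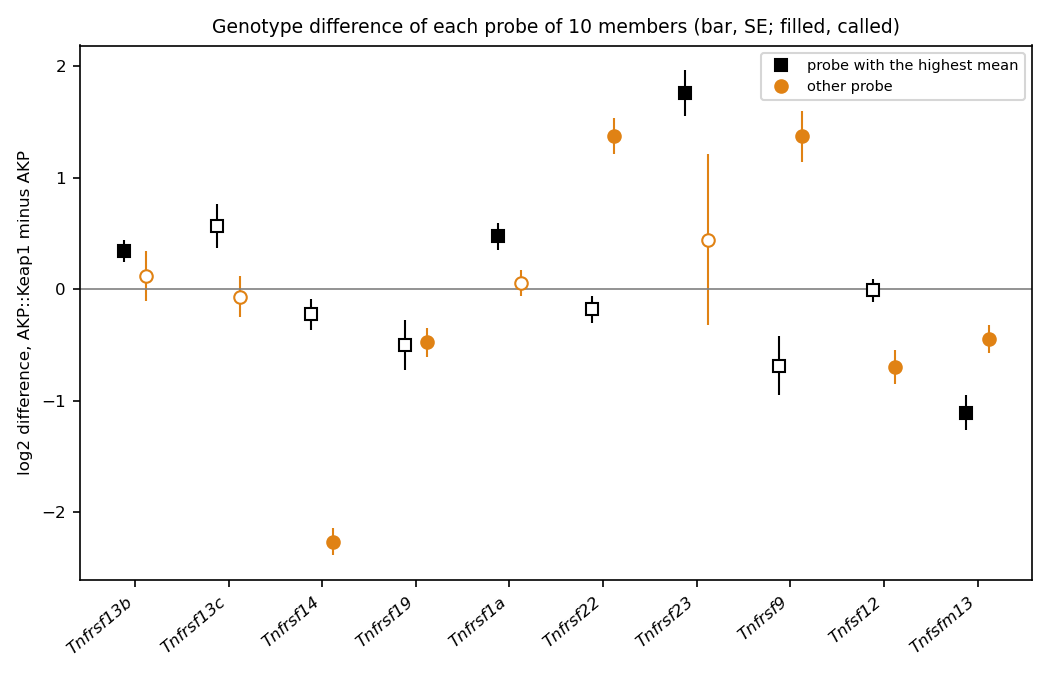
Log2 difference of each kept probe, AKP::Keap1 minus AKP over both sexes, with SE bars, for the 10 members with more than 1 kept probe; squares are the probe that stands for the gene, circles the other probe, filled where called. The Tnfrsf14 probes lie at -0.22 and -2.27; the Tnfrsf9 probe that stands for the gene lies at -0.69 and the other above 0, where its plotted size is not a measured fold because 0 AKP arrays were above background.

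Within males, 12 members were called higher in AKP::Keap1 and 1 lower, against 16.7% and 11.5% of all genes tested (28.2% in either direction), and the median over the members was 0.54. Within females, 7 were higher and 3 lower, against 12.3% and 9.10% of all genes (21.4% in either direction), with a median of 0.27. The dimmest 1583 genes had a median difference of 0.67 in males and 0.31 in females. Ltb, Tnfrsf11a, Tnfrsf18, Tnfrsf23, Tnfrsf4, Tnfsf13b and Tnfsf9 were called higher in each sex and Tnfsfm13 lower in each. Lta, Tnf, Tnfrsf13b, Tnfrsf13c and Tnfsf15 were called in males, and Tnfrsf11b and Tnfrsf21 were called lower in females. Among 18 alternatives, the male call held in 7 for Tnfrsf13b, 4 for Tnfrsf13c and 6 for Tnfsf15. With normexp the male differences of Tnfrsf13b, Tnfrsf13c and Tnfsf15 were -0.09, -0.20 and -0.22. Lta was above background on 1 AKP::Keap1 male and 0 AKP males, and with normexp its male difference was -0.52. Ltb rose by 3.02 ± 0.30 in males (adjusted p = 0.00287) and by 1.81 ± 0.30 in females (adjusted p = 0.0125). Tnf rose by 2.76 ± 0.53 in males (adjusted p = 0.0168), and its difference in females was 1.83 ± 0.53 (adjusted p = 0.056). Tnfrsf21 fell by 0.89 ± 0.24 on the log2 scale in females (adjusted p = 0.0462), a call that ended in 9 of 18 alternatives. These were females alone (adjusted p = 0.068), no filter on dim probes (0.0629), no scaling (0.12) and the omission of any female array or of either AKP male (0.0708 to 0.16). The counts by sex rest on 2 mice a side: the rises in males numbered 2 without the second AKP::Keap1 male, 4 without the first AKP male, 6 without the second AKP male and 7 without the first AKP::Keap1 male, and those in females 1 without the second AKP female, 2 without the first AKP female, 3 without the second AKP::Keap1 female and 4 without either AKP::Keap1 male.

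The genotype difference itself was not called as different between the sexes in any of the 32 members, that is 0 calls in the genotype by sex interaction by limma, against 1.72% of all genes tested (0.411% with a larger and 1.31% with a smaller value in females). At an unadjusted p below 0.05 there were 6 members, and the count of calls stayed at 0 with each setting except the fit of single probes, which called 1, the other Tnfrsf14 probe. The female minus male difference was negative in 26 of 32 members, with a median of -0.22 against 0.01 over all genes. That median turned to 0.02 with the shift to the array median and to 0.18 with normexp, where all genes had 0.25 and 0.22. In the dimmest 1583 genes it was -0.34. The difference was smallest in adjusted p for Tnfsf15, at -1.13 ± 0.35 (adjusted p = 0.135). Ltb had -1.20 ± 0.42 (adjusted p = 0.164).

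Between the sexes, averaged over the genotypes, 7 members were higher in females than in males and 0 were lower, against 10.9% and 10.3% of all genes tested (21.1% in either direction). Tnfrsf13c differed by 1.01 ± 0.19 (adjusted p = 0.0208), Fas by 0.72 ± 0.11 (adjusted p = 0.0118) and Tnfrsf11b by 0.71 ± 0.10 (adjusted p = 0.0109). Tnfrsf18, Tnfrsf21, Tnfrsf22 and Tnfrsf26 were the others, with differences of 0.78, 0.76, 0.62 and 0.54. Their calls held in 10, 9, 11 and 2 of 18 alternatives. Sex coincides with scan day and slide and cannot be told apart from them, and with slide as a random block 0 members were called. Markers of B and plasma cells moved in the same direction by sex, with 4 of 5 higher in females and a median of 1.21. So did those of NK cells (3 of 4, median 0.94) and Kupffer cells (2 of 4, median 0.76), and T cell markers had 1 of 5 higher with a median of 0.91. Macrophage and monocyte markers had 1 of 5 higher with a median of -0.0025, and endothelium 1 of 5 higher with 0.25. Of neutrophil, stellate cell and hepatocyte markers 0 were called, with medians of 0.16, 0.30 and -0.13. Bile duct epithelium had 1 of 6 lower with a median of -0.30. Their part in these differences was not tested.

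The pathway downstream of the receptors was described with lists of other genes. Superfamily members with other symbols had 2 of 5 tested genes higher and 0 lower: the receptor Relt (0.76 ± 0.15, adjusted p = 0.0103), and the ectodysplasin ligand Eda (0.55 ± 0.09, adjusted p = 0.00598). Eda had -3.05 and -3.01 in AKP::Keap1 males against -4.10 and -4.12 in AKP males. In females it overlapped, at -2.96 and -3.05 in AKP::Keap1 and -2.90 and -3.15 in AKP. Within females 0 of the 5 genes were called. Cd40lg, Cd70, Edar and Eda2r were above background on 0 arrays. Among TRAF adaptors and receptor-proximal kinases, 4 of 20 rose and 5 fell, with a median of -0.11. Of the 67 genes tested in all 6 lists, 15 rose and 10 fell, or 22.4% and 14.9%, near the 21.8% and 17.2% of all genes tested. Map3k14, the NIK kinase of the non-canonical NF-kB pathway that lymphotoxin beta and BAFF receptors use, rose by 0.83 ± 0.14 (adjusted p = 0.0061), and the adaptor Traf1 by 0.79 ± 0.15 (adjusted p = 0.00958). Tnip1, a partner of the NF-kB inhibitor A20, rose by 0.83 ± 0.21 (adjusted p = 0.026). The kinase Ripk1, which sits on TNF receptor 1, fell by 0.63 ± 0.09 on the log2 scale (adjusted p = 0.00368), and the adaptors Traf6 and Traf4 fell by 0.45 and 0.50. Tnfaip3, which encodes A20, rose by 0.94, and Cyld and Birc3 fell by 0.62 and 0.56, these 3 named after their values were seen.

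In the death pathway, 1 of 11 genes rose and 3 fell, against 21.8% and 17.2% of all genes tested. Mlkl, the effector of necroptosis, stood at 0.52 and 0.67 in AKP::Keap1 males against -0.63 and -0.49 in AKP males, and at 0.85 and 0.81 in AKP::Keap1 females against 0.24 and -0.31 in AKP females. Casp8, the caspase that death receptors activate, had 0.41 and 0.24 in AKP::Keap1 males against 0.97 and 0.83 in AKP males, and -0.14 and 0.22 in AKP::Keap1 females against 1.34 and 1.78 in AKP females. Neither gene overlapped between genotypes within a sex. Mlkl rose by 1.01 ± 0.14 (adjusted p = 0.00364), Casp8 fell by 1.05 ± 0.14 on the log2 scale (adjusted p = 0.00346), and Xiap, which encodes a caspase inhibitor, fell by 0.32.

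Of the NF-kB subunits, kinases and inhibitors, 2 of 12 rose and 1 fell, against 21.8% and 17.2% of all genes tested. Relb, a subunit of the non-canonical pathway, had 0.32 and 0.45 in AKP::Keap1 males against -1.32 and -1.46 in AKP males, and 0.02 and 1.18 in AKP::Keap1 females against -0.69 and -0.36 in AKP females. It rose by 1.45 ± 0.25 (adjusted p = 0.00746), and the inhibitor Nfkbie by 1.39 ± 0.25 (adjusted p = 0.00792), while the kinase Ikbkb fell by 0.41. The subunit Nfkb2, named after its value was seen, was not called at 0.47 (adjusted p = 0.0523). Among 14 NF-kB target genes tested, 5 rose and 0 fell, with a median of 0.47 over the 14. Within males 6 of 14 were higher with a median of 1.13, and within females 1 of 14 with a median of 0.25. Of all genes tested, 16.7% were called higher within males and 12.3% within females. In the interaction 0 of 14 were called. Ccl2, the chemokine that draws monocytes, rose by 3.34 ± 0.38 (adjusted p = 0.00226), the adhesion molecule Vcam1 by 1.05 ± 0.23 (adjusted p = 0.0153) and the siderophore binder Lcn2 by 2.15 ± 0.51 (adjusted p = 0.0189). Mmp9 and Csf1, the others that were called, were named after their values were seen. The sheddases and their regulators, which release TNF from the membrane, had 1 rise and 1 fall among 5: Rhbdf2 by 0.45 ± 0.14 (adjusted p = 0.0474) and the inhibitor Timp3 by -0.46 ± 0.11 (adjusted p = 0.0201). Adam17, the TNF-converting enzyme, differed by -0.02.

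**Figure D4:**
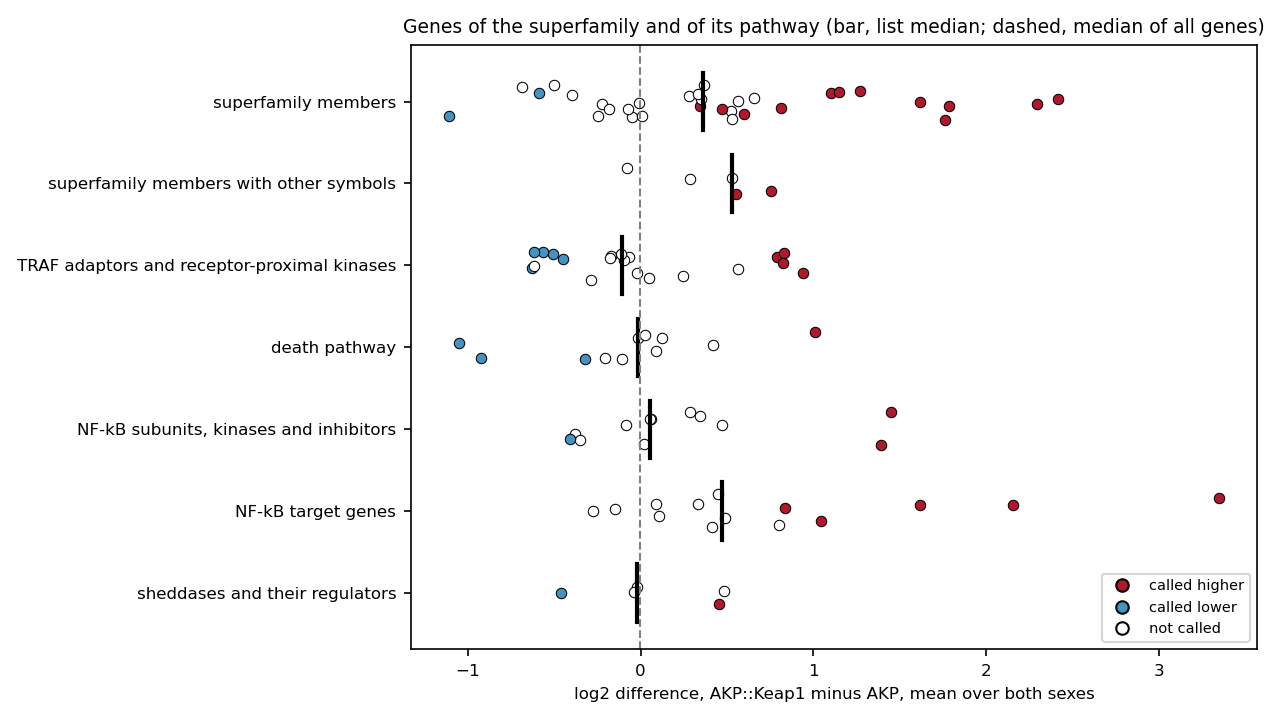
Log2 difference of single genes, AKP::Keap1 minus AKP over both sexes, for the 32 members and 6 lists of related genes; points are genes coloured by call, thick bars list medians, and the dashed line the median of all genes tested. The medians of the members (0.36) and of the NF-kB target genes (0.47) lie right of the line, and those of the TRAF adaptors (-0.11) and the death pathway (-0.01) at or left of it.

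Markers of several cell types that make these ligands and receptors moved with genotype in the same livers. Beside the counts below, 21.8% of all genes tested were called higher and 17.2% lower. Of 6 bile duct epithelium markers 5 rose, and their summed level, as log2 of the summed scaled signals, was 6.06 to 6.29 in AKP::Keap1 males against 2.97 to 3.14 in AKP males and 5.03 to 6.18 in AKP::Keap1 females against 1.71 to 3.19 in AKP females. That sum is mostly Spp1, since such sums weight the brightest probes. All 4 neutrophil markers tested rose, with a summed level of 4.96 to 5.30 in AKP::Keap1 males against 2.15 to 2.53 in AKP males and 4.86 to 4.94 in AKP::Keap1 females against 2.41 to 2.98 in AKP females. Macrophage and monocyte markers had 3 of 5 higher, with summed levels of 4.78 to 5.13 in AKP::Keap1 males against 4.41 to 4.88 in AKP males and 5.31 to 5.76 in AKP::Keap1 females against 5.16 to 5.27 in AKP females. This sum is mostly Csf1r, whose levels overlapped between genotypes in males. For T cells 1 of 5 markers rose, with 5.25 to 5.50 in AKP::Keap1 males against 4.73 to 5.06 in AKP males and 4.44 to 5.51 in AKP::Keap1 females against 4.30 to 4.85 in AKP females. That sum is mostly Cd4, which was not called (0.43, adjusted p = 0.25). For B and plasma cells 1 of 5 rose, for stellate cells and fibroblasts 3 of 5 rose and 1 fell, for endothelium 3 of 5 fell, and for Kupffer and NK cells 0 of 4 each were called. Hepatocyte markers had 4 of 6 lower, with a summed level of 9.49 to 9.53 in AKP::Keap1 males against 10.07 to 10.28 in AKP males, and their sums in females overlapped between genotypes. The part of cell composition in the changes of the superfamily was not tested. Cd68, Ly6c2 and Ly6g have no named probe here.

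Set side by side, ligands and their receptors had these calls, with no test of a difference between members. TNF rose with Tnfrsf1a, on 1 of its 2 probes, while Tnfrsf1b was not called at 0.28. Lymphotoxin beta rose and Ltbr was not called, and BAFF rose with TACI, whose call is unsteady, while the BAFF receptor at 0.57 and BCMA at 0.66 were not called. The TRAIL receptors Tnfrsf10b and Tnfrsf23 rose and Tnfrsf11b fell, with TRAIL itself not called. Fas with Fasl, and Tnfrsf12a with Tnfsf12, were not called on either side by the probes that stand for these genes.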

How the data were processed

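Whole liver RNA of 8 mice was measured on single-colour Agilent arrays, 2 mice in each of 4 groups. The authors deposited scanner output with an intensity for every spot on a linear scale. Feature Extraction 10.7.3.1 made it, per the file headers (10.1, per the submitters' processing notes). Used here was the processed signal, from which the software had subtracted background, and the series matrix repeats these intensity values.

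Of 44397 spots per array, 1377 controls and the outlier spots were left out, and log2 signals of one probe's spots were averaged. Values are log2 minus each array's 75th percentile. Probes were named by accession through a RefSeq gene table (GRCm38.p6), whose build is not the mm9 of the file headers, so probe positions are not given. Probes were kept where well above background on 2 or more of 8 arrays, and each gene was represented by its kept probe of highest mean.

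limma 3.58.1 in R 4.3.3 fitted 1 mean per group over 15834 genes. Genes were called at a two-sided Benjamini-Hochberg adjusted p below 0.05. Log2 differences are AKP::Keap1 minus AKP, or female minus male. Single-array values were printed for members called by genotype, up to 8 per direction by adjusted p, for members called in the interaction, and for Tnf, Fas, Tnfrsf1a, Tnfrsf12a and Tnfsf10. In other lists up to 3 genes per direction were named, and the exceptions are stated; some genes that meet this rule are not reported here. Alternatives covered normalization, background, filters, probes, variance model, slide, replicate block, the source of values and each array left out. Members and lists were chosen with earlier results of these data known. Replicate numbers did not pair the mice: deviations from the group means correlated between -0.16 and 0.12. The fits were tested on simulated data.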

Additional observations from a re-analysis of the deposited data

Results flagged for a closer look

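The genotype difference had opposite signs in the sexes, with no overlap of arrays in either sex, for 2 members. For Fas the female difference minus the male difference was -0.55 (limma adjusted p = 0.198), with AKP::Keap1 females below AKP females and AKP::Keap1 males above AKP males. For Tnfrsf26 it was -0.89 (adjusted p = 0.147), with the same pattern. Neither was called in the interaction.

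The second probe of Tnfrsf14 was called in the interaction when each probe was fitted by itself. It fell by 3.15 on the log2 scale in AKP::Keap1 males (adjusted p = 0.000756) and by 1.39 in AKP::Keap1 females (adjusted p = 0.00555), so that the female difference minus the male difference was 1.76 (adjusted p = 0.0354). The probe that stands for Tnfrsf14 had an interaction of 0.38 (adjusted p = 0.455).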

How the results depend on the processing

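For the 22 members called in a comparison or named for liver cell death and regeneration, 1953 single-member values were compared with the main fit. Of these, 204 lost a call, 30 gained one and 10 changed sign with a call on at least one side. The other 1709 kept their side of the threshold, but values not called on either side could change sign among them. The Tnfrsf10b interaction, for example, kept its sign in 10 of 17 alternatives. With normexp on the median signals, used because the files hold no mean signal, so that the planned version was not run, the genotype difference of Lta was -0.22 (males -0.52) and that of Tnfrsf13b -0.012 (males -0.087), and in males Tnfrsf13c had -0.20, Tnfrsf26 -0.49 and Tnfsf15 -0.22. With the mean of kept probes, Tnfrsf22 had 0.60 over both sexes, 0.63 in males and 0.56 in females, since its probes differ in sign. The cause of the other changes was not tested. Members lower by genotype numbered 4 with quantile normalization, 7 with the shift to the array median, 6 with normexp, 1 without scaling and 5 with each probe by itself, against 2. The members' split of higher to lower calls was 12 to 2, against 10 to 7 with the median shift, 9 to 6 with normexp, 11 to 4 with quantile normalization and 17 to 1 without scaling, where the median of all genes moved to -0.25, -0.12, -0.02 and 0.31. In males, 5 were higher with normexp and 19 without scaling, and lower calls numbered 2 with quantile normalization, 4 with the median shift, 6 with normexp, 2 with the mean of probes, 2 with males alone and 2 with each probe. In females, 1 was higher with females alone, and lower calls numbered 0 without scaling, 1 without a filter, 1 with females alone and 5 with each probe. The interaction had 1 call with each probe by itself. By sex there were 4 calls without scaling and 0 with slide as a random block. Leaving out single arrays gave 10 to 13 members higher and 2 to 3 lower by genotype, 2 to 11 and 0 to 2 in males, 1 to 6 and 0 to 3 in females, 0 in the interaction and 2 to 8 by sex. Where a group kept 1 mouse, it was assumed to vary like the other groups. With a replicate block 12 members were higher and 2 lower by genotype, and 11 and 1 in males, 6 and 2 in females and 6 by sex. The number of arrays limits the precision.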
